A study of Homo sapiens with 18 samples.

Results

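The comparison described here set podocytes given the inflammatory cytokines TNF-alpha and IL-6 against untreated podocytes, all on a fractal surface. Its members were chosen by label, 3 libraries marked fractal topography and cytokines and 3 marked fractal topography and control, 6 of the 18 libraries of the series. The cells, a telomerase-immortalised human podocyte line named PODO/TERT256, were cultured on 3D hemispheres with a fractal or a smooth surface. The remaining groups, each of 3 libraries, were smooth control, smooth cytokines, and, on either surface, cells exposed to THP-1-derived macrophages (THP-1 is a line from a human monocytic leukaemia). All groups came from this 1 line. The labels used here give neither dose nor exposure time. Whether replicate libraries came from separate cultures is not stated there either, and p-values therefore rest on variation among libraries that could be purely technical. Messenger RNA was selected by poly-T, sequenced as paired reads without keeping the strand, and counted per gene.

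Podocytes are the epithelial cells whose interlocking foot processes cover the outside of the glomerular capillaries and hold back plasma proteins. TNF-alpha acts through receptors that free NF-kB, a family of transcription factors, from its inhibitors. NF-kB then drives genes of chemokines, adhesion molecules and its own inhibitors. IL-6 binds its receptor together with the shared subunit gp130 and acts mainly through the transcription factor STAT3, whose targets include acute phase proteins and the feedback inhibitor SOCS3.

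The 3 control libraries held 17357103 to 21264180 counts and the 3 cytokine libraries 15564940 to 16596955. Levels are given below in counts per 1e6 counts after TMM scaling (CPM), and log2 fold changes carry their standard error. The biological coefficient of variation, the spread between replicates beyond counting error, was 4.67% among the fractal controls and 9.61% among the fractal cytokine libraries. It was 13.7% among the smooth cytokine libraries, 24.4% among the fractal THP-1 libraries and 12.2% over all 18 libraries, which were fitted together for the tests. Of the genes that define mature podocytes, WT1 had no count in the 6 libraries and NPHS1 (nephrin) had none with cytokines. SYNPO (synaptopodin) and PODXL (podocalyxin) were present. Macrophage markers summed to 2.86 to 4.42 CPM in the controls and 3.13 to 5.78 CPM with cytokines, with 11 and 13 of 24 members at 0, CD163, TYROBP, AIF1 and SPI1 among them in both groups. A pair of libraries outside this comparison, which entered the fit of all 18 libraries, stood apart. The second smooth cytokine library had 8.09% of its counts on mitochondrially encoded genes and the third fractal THP-1 library had 0.847%, against 3.86 to 4.45% in the 6 libraries described here.

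Cytokines raised 2089 genes and lowered 2078 of the 16129 tested on fractal topography, 25.8% in all (13% and 12.9%), by edgeR's quasi-likelihood test at a Benjamini-Hochberg adjusted p under 0.05. With the 2 libraries that stood apart left out of the fit, the counts were 2920 and 2994. In the main fit the rises were the larger in size. Past a log2 fold change of 2 there were 285 rises and 32 falls, and past 3 there were 140 rises and 3 falls. The median was 0.72 among genes that rose, -0.49 among genes that fell and 0.03 over all genes tested. In 4116 of the 4167 called genes the 3 cytokine libraries all lay on 1 side of the 3 controls, which was so for 46.8% of all genes tested. Of 1963 long noncoding RNAs tested 155 were higher and 47 lower, and most were not called. Both shares were below the 13% and 12.9% of all genes tested. Among the long noncoding RNAs called, rises outnumbered falls. The 4 with the largest rises among those past 5 CPM were AC004656.1, LUCAT1, LINC02593 and MIRLET7IHG. LUCAT1, for example, had 0.975, 1.46 and 0.931 CPM in the controls and 5.52, 4.36 and 5.41 CPM with cytokines (2.16 ± 0.31).

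**Figure D1:**
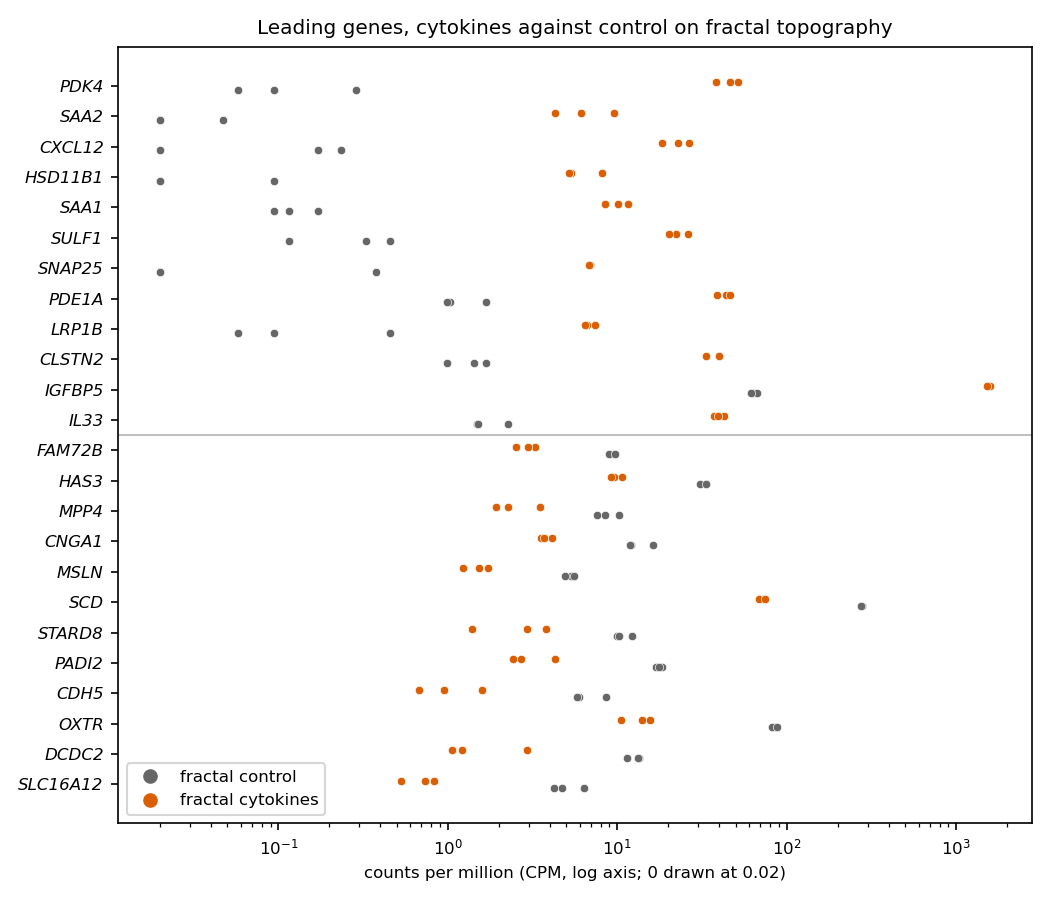
Level of the 12 genes with the largest rises and the 12 with the largest falls among protein-coding genes past 5 CPM in the higher group, in CPM on a log axis, 1 point per library, grey for the 3 fractal controls and orange for the 3 fractal cytokine libraries; a library with no count is drawn at 0.02 CPM. The genes were chosen for groups that do not overlap; IGFBP5 went from 61.6 to 66.5 CPM in the controls to 1531 to 1594 CPM with cytokines.

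PDK4 led the rises among the protein-coding genes that averaged 5 CPM or more with cytokines. It encodes a kinase that switches off pyruvate dehydrogenase and so diverts carbon from glucose oxidation (chromosome 7, 95583499 to 95596491, GRCh38). It had 0.287, 0.0939 and 0.0582 CPM in the controls and 46.2, 51.8 and 38.4 CPM with cytokines, a log2 fold change of 8.24 ± 0.42 (edgeR adjusted p = 3.11e-11). It was thus near the limit of detection in every control and well expressed in every cytokine library. SAA2, an acute phase apolipoprotein, had 1 count over the 3 controls and 315 over the cytokine libraries, a ratio of 374 with a 95% counting interval of 66.7 to 14836. HSD11B1, the enzyme that regenerates cortisol from cortisone, went from 2 to 294 counts, a ratio of 175 (interval 47.9 to 1450). Both ratios are thus very imprecise, and SAA2 shares sequence with SAA1, so the level of each is uncertain.

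IGFBP5 encodes a secreted binding protein for insulin-like growth factors (chromosome 2, 216672105 to 216695525). Its levels were 63.6, 66.5 and 61.6 CPM in the controls and 1538, 1594 and 1531 CPM with cytokines. The rise of 4.60 ± 0.12 (edgeR adjusted p = 5.19e-19) was far larger than the spread within either group. IL33, an alarmin of the interleukin 1 family, had 1.49, 1.5 and 2.27 CPM in the controls and 37.2, 42.6 and 39.5 CPM with cytokines (4.51 ± 0.28). PDE1A, a phosphodiesterase of cyclic nucleotides, rose by 5.13 ± 0.31, the low density lipoprotein receptor relative LRP1B by 5.06 ± 0.46 and the synaptic adhesion protein CLSTN2 by 4.76 ± 0.31. LRP1B was below 0.5 CPM in each control.

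The largest falls were smaller in size. DCDC2, a microtubule-binding protein, went from 11.5, 13.4 and 13.3 CPM to 1.06, 2.95 and 1.21 CPM (-2.85 ± 0.23). OXTR, the oxytocin receptor, went from 83.7, 82.4 and 87.5 CPM to 14, 10.5 and 15.7 CPM (-2.66 ± 0.13). SCD, the desaturase that makes monounsaturated fatty acids, had 275, 279 and 275 CPM in the controls and 72.9, 68.7 and 74.6 CPM with cytokines (-1.94 ± 0.08, edgeR adjusted p = 3.97e-15). In each of these the highest cytokine library lay far below the lowest control. STARD8, a GTPase-activating protein, fell by 2.00 ± 0.23, the mesothelial surface protein gene MSLN by 1.82 ± 0.31, and HAS3, a hyaluronan synthase, by 1.73 ± 0.14.

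Some genes were seen under a single condition. With no count in the controls and at least 10 over the cytokine libraries there were 99 genes, and with the reverse 55. KLHL14 had 0 and 122 counts, at least 48.3-fold higher when the controls are set at 3 counts over the group. On the same floor DAPL1 was at least 40.8-fold higher, CADM3, a cell adhesion molecule, 36.8-fold, KLRD1 34.9-fold, LINGO2 31.7-fold and TREM1, a receptor of innate immune cells, 17.4-fold. In the other direction MYO7B (27 counts, then 0) was at least 7.57-fold lower and CYP24A1, the vitamin D hydroxylase, at least 7.01-fold lower. These last genes did not pass the filter on low counts and were not tested.

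Counts of list members given from here on stand against 13% higher and 12.9% lower over all genes tested. Those given without the 2 libraries that stand apart come from a fit that called more genes in general. It called 2920 higher and 2994 lower, against 2089 and 2078 in the main fit. Of the receptors and adaptors of the added cytokines 8 of 18 tested were higher and 9 did not pass, with 1 lower (3 without the 2 libraries that stand apart) and a median of 0.21. TNFRSF1A, the main signalling receptor of TNF-alpha, had 163, 170 and 157 CPM in the controls and 235, 238 and 235 CPM with cytokines (0.53 ± 0.08). The cytokine libraries were all higher than every control. RIPK1, a kinase recruited to that receptor, rose by 0.44 ± 0.11, and IL6ST, which encodes gp130, by 0.37 ± 0.10. IL6R, the ligand-binding receptor of IL-6, stood at 2.3, 2.72 and 3.73 CPM and then 1.4, 1.54 and 1.97 CPM, which missed the threshold (-0.83 ± 0.31, edgeR adjusted p = 0.0549). TNF itself had at most 0.188 CPM in any of the 6 libraries.

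NF-kB target genes were split. Of 40 tested, 14 rose, 9 fell and 17 did not pass, with a median of 0.12. CXCL1, a chemokine that attracts neutrophils, had 171, 171 and 174 CPM in the controls and 389, 433 and 477 CPM with cytokines (1.33 ± 0.09). CXCL6, another neutrophil chemokine (chromosome 4, 73836497 to 73849064), went from 39.6, 44.9 and 42.1 CPM to 99.5, 109 and 141 CPM (1.46 ± 0.13). NFKBIA, which encodes the inhibitor that holds NF-kB in the cytoplasm, went from 38.8, 38.6 and 34.1 CPM to 60.3, 66.7 and 68.7 CPM (0.81 ± 0.09). In all 3 genes the lowest cytokine library lay above the highest control. TNFAIP3, a ubiquitin-editing brake on the pathway, rose by 0.81 ± 0.08, NFKBIZ, a nuclear cofactor, by 0.88 ± 0.10, and SOD2, the mitochondrial superoxide dismutase, by 1.97 ± 0.11.

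Other members went the opposite way. VCAM1, an adhesion molecule for lymphocytes and monocytes, had 644, 643 and 647 CPM in the controls and 393, 333 and 407 CPM with cytokines (-0.77 ± 0.09, edgeR adjusted p = 8.83e-07). All 3 cytokine libraries were lower than every control. IL32, a cytokine gene, went from 94.6, 97.1 and 107 CPM to 73.5, 71.4 and 63.3 CPM (-0.52 ± 0.10). IL1A, the interleukin 1 alpha gene, went from 54.3, 53.1 and 52.2 CPM to 28.9, 23.1 and 33.8 CPM (-0.90 ± 0.24). NFKB1, the p105/p50 subunit, fell by 0.26 ± 0.09, a call lost in 4 of the 15 alternative fits. ICAM1, the leukocyte integrin ligand, stood at 23.2, 22.5 and 22.2 CPM and then 25, 21.9 and 23.7 CPM, with overlapping groups (0.05 ± 0.09). CXCL8, which encodes interleukin 8, also overlapped, at 661, 720 and 725 CPM and then 650, 606 and 760 CPM (-0.06 ± 0.08).

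The promoters of 4 of these genes are shown because genes with the same NF-kB motif close to the start moved in different directions. Each line gives the 120 bases before the RefSeq start in GRCh38.p14, 5′ to 3′ on the gene's strand, with every match to the NF-kB consensus in capitals. The windows are chr4:73869273-73869392 on the plus strand, chr14:35404750-35404869 on the minus strand, chr1:100719622-100719741 on the plus strand and chr4:73836558-73836677 on the plus strand.
CXCL1: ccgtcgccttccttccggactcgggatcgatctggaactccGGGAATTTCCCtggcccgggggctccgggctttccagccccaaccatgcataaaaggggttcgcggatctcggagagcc
CXCL6: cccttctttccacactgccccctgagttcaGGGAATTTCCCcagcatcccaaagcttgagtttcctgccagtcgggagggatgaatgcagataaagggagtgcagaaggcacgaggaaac
NFKBIA: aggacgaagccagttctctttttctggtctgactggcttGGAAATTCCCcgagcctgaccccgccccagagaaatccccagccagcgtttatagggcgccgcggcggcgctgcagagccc
VCAM1: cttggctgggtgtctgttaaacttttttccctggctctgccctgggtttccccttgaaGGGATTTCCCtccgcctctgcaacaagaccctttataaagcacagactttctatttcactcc

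In CXCL1 and CXCL6 a pair of matches overlap by all but 1 base, so 11 bases are in capitals. The first match began 79 bases before the start in CXCL1, 90 in CXCL6, 81 in NFKBIA and 62 in VCAM1. Thus CXCL1, CXCL6 and NFKBIA, which rose, and VCAM1, which fell, all carry the motif within 100 bases of the start. Over windows from 250 bases before to 50 after the start, searched on both strands, 17 of the 31 NF-kB target genes with a window held the motif (54.8%), against 5.72% of the 27305 genes with a window. The share was 7.49% among genes that rose and 7.07% among genes that fell, against 6.66% of genes tested. A match describes the letters alone and is not evidence of binding.

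CXC chemokines rose in 6 of 8 tested members and none fell, with a median of 1.11. Beside CXCL1 and CXCL6, CXCL5 went from 29.4, 30.8 and 34.3 CPM to 54.8, 56.2 and 64 CPM (0.89 ± 0.13) and CXCL2 rose by 0.77 ± 0.16. CXCL12, the ligand of CXCR4, had 0.172, 0 and 0.233 CPM in the controls and 22.7, 26.7 and 18.3 CPM with cytokines (7.41 ± 0.35). Of the CC chemokines and colony-stimulating factors, 2 of 8 rose and 1 fell. CSF1, the macrophage growth factor, rose from 59.9, 60 and 64.9 CPM to 96, 100 and 91.1 CPM (0.64 ± 0.10). CCL2, the main monocyte chemokine, had 15.6, 18 and 17.3 CPM and then 14.6, 15.7 and 23.4 CPM, and the groups overlapped.

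Of genes of the IL-6 and STAT3 response 14 of 20 tested were higher, with 1 lower (2 without the 2 libraries that stand apart) and a median of 0.58. SOCS3, the feedback inhibitor of the pathway, went from 14.1, 13.4 and 13.2 CPM to 27, 30.8 and 24.9 CPM (1.03 ± 0.12, edgeR adjusted p = 3.7e-07). CEBPD, a transcription factor of the acute phase, went from 12.5, 13.7 and 13.2 CPM to 40.1, 52.1 and 36.8 CPM (1.71 ± 0.13). Both were higher in every cytokine library than in any control. IL6 itself went from 23.9, 23.6 and 26 CPM to 54.5, 59 and 64.9 CPM (1.28 ± 0.09). JUNB rose by 1.05 ± 0.11, BCL3 by 0.52 ± 0.13 and STAT3 by 0.32 ± 0.08. MYC, a growth-promoting transcription factor, was the member that fell (-0.60 ± 0.13). LIF, a cytokine of the same family counted among the NF-kB targets, also fell (-0.33 ± 0.07).

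Acute phase proteins rose in 7 of 11 tested members and none fell (2 fell without the libraries that stand apart). The median was 3.92, or 1.43 when the 2 members without a count in the controls are set at their bound. SAA1 had at most 0.172 CPM in a control and 8.51, 11.6 and 10.1 CPM with cytokines. Of the 3 fibrinogen chains, FGA rose from 4.53, 5.4 and 5.41 CPM to 12.3, 16.2 and 12.8 CPM (1.43 ± 0.32), while FGB had 306, 309 and 304 CPM and then 204, 163 and 170 CPM (-0.78 ± 0.31, edgeR adjusted p = 0.0838) and FGG 8.03, 8.83 and 8.85 CPM and then 10, 9.46 and 9.99 CPM (0.20 ± 0.47, edgeR adjusted p = 0.812). Differences between the chains were not tested. PTX3, a long pentraxin, did not pass either (-0.34 ± 0.21).

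Complement genes rose in 9 of 16 tested members and fell in 1, with a median of 1.19. C3, the central component cleaved by every activation route, had 41.8, 40.1 and 40.1 CPM in the controls and 609, 637 and 606 CPM with cytokines (3.92 ± 0.14, edgeR adjusted p = 1.64e-15). C1R went from 13.1, 10.1 and 9.9 CPM to 151, 191 and 134 CPM (3.85 ± 0.13), and C1S, the other protease of the first component, from 5.62, 5.12 and 4.6 CPM to 110, 116 and 92.6 CPM (4.37 ± 0.17). All 3 rose by more than an order of magnitude with no overlap between groups. Genes of regulators also moved. CLU (clusterin) went from 1.09, 0.939 and 1.28 CPM to 25.3, 26.5 and 15.1 CPM (4.34 ± 0.24), whereas the membrane inhibitor CD59 fell by 0.29 ± 0.07.

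Type I interferon response genes rose in 6 of 31 tested members and fell in none (10 and 1 without the 2 libraries that stand apart). The share that rose, 19.4%, was not far from the 13% of all genes tested. IFI44L was among them (1.75 ± 0.32), while ISG15 and IFIT1 did not pass the test. Of 20 genes of MHC class I presentation 5 rose and 1 fell (8 and 4 without those libraries), with HLA-B at 0.76 ± 0.10 and HLA-C at 0.58 ± 0.15, which may share reads. B2M, the invariant light chain, was at 544, 540 and 533 CPM and then 562, 619 and 620 CPM and did not pass. Apolipoprotein L genes rose in 3 of 4 tested members. APOL1, whose coding variants are linked to kidney disease, went from 42.6, 47.5 and 46.8 CPM to 83, 94.9 and 84.1 CPM (0.94 ± 0.08).

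Prostaglandin genes rose in 6 of 15 tested members and fell in 2. PTGS2, the inducible cyclooxygenase, had 67.8, 72 and 67.6 CPM in the controls and 336, 343 and 360 CPM with cytokines (2.33 ± 0.12). PTGES, the terminal synthase of prostaglandin E2, went from 1.38, 0.845 and 0.699 CPM to 9.58, 13.4 and 12.8 CPM (3.61 ± 0.25). PTGIS, the prostacyclin synthase, rose from 110, 113 and 113 CPM to 182, 177 and 189 CPM (0.71 ± 0.07). The receptor genes divided, with PTGFR higher by 1.83 ± 0.18 and PTGER4 lower by 0.57 ± 0.17.

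**Figure D2:**
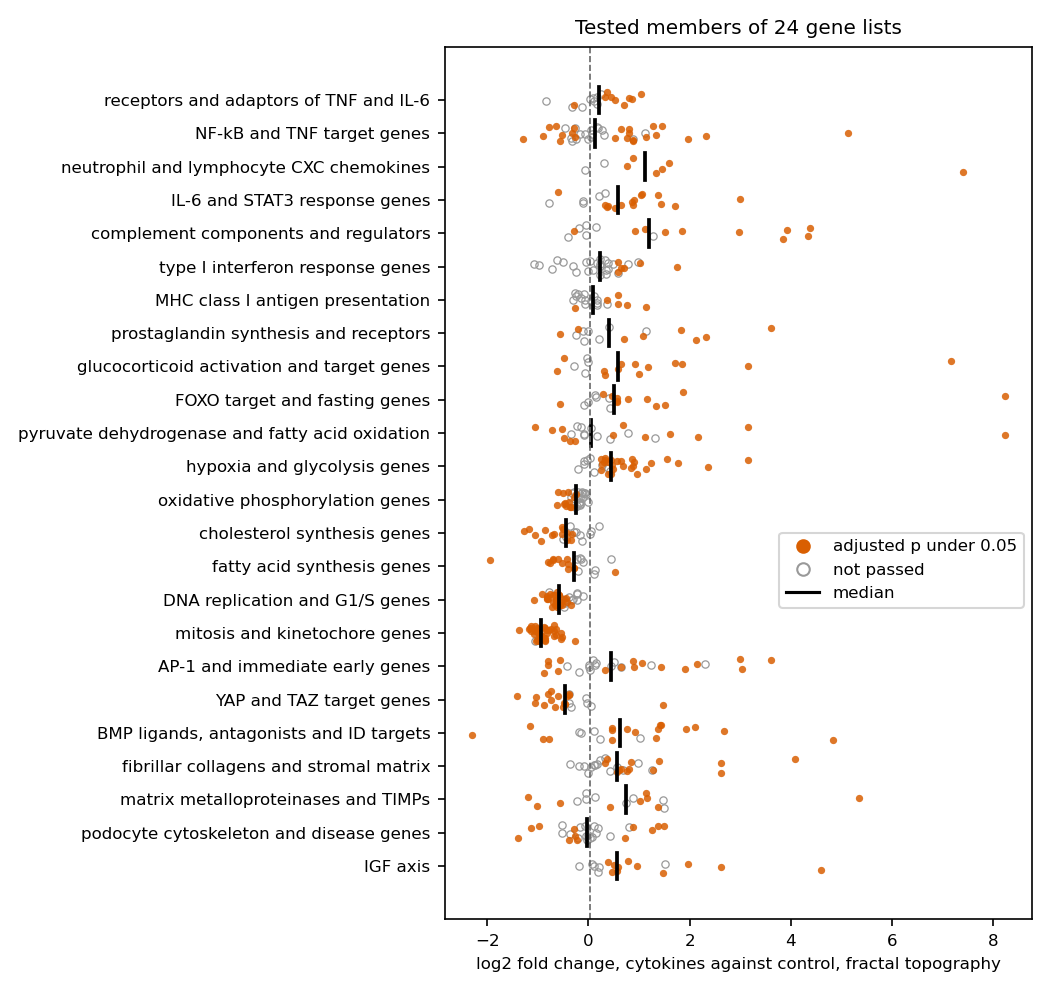
Log2 fold change of cytokines against control on fractal topography for every tested member of 24 gene lists, 1 point per gene, filled where the edgeR adjusted p was under 0.05 and open where not, with a black bar at the list's median; the dashed line marks the median of all genes tested, 0.03. Members of the NF-kB list lie on both sides of 0, 40 of 41 mitosis genes are filled below 0, and the cholesterol list has no filled point above 0.

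Of 17 glucocorticoid activation and target genes 11 rose and 2 fell (median 0.58), and of 18 FOXO target and fasting genes 11 rose and 1 fell (median 0.51). TSC22D3, which encodes the glucocorticoid-induced leucine zipper, went from 38.2, 37.4 and 36.7 CPM to 123, 141 and 142 CPM (1.85 ± 0.17). KLF9, another receptor target, went from 63.3, 64.1 and 66.5 CPM to 128, 119 and 122 CPM (0.93 ± 0.09). FOXO1 went from 48.3, 46.5 and 47.9 CPM to 98.8, 103 and 114 CPM (1.15 ± 0.10). These 3 had no overlap between groups. BCL6, a repressor induced by FOXO factors, rose by 1.51 ± 0.11, ZBTB16 by 1.18 ± 0.18 and DUSP1, a phosphatase of MAP kinases, by 0.65 ± 0.07, while the kinase gene SGK1 did not pass (-0.03 ± 0.14).

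Fuel handling genes moved on both sides. ANGPTL4, a secreted inhibitor of lipoprotein lipase, had 61.9, 64.6 and 60.4 CPM in the controls and 564, 604 and 486 CPM with cytokines (3.15 ± 0.10, edgeR adjusted p = 3.6e-17). CPT1A, the enzyme that admits long-chain fatty acids to mitochondria, went from 48, 46.8 and 43.3 CPM to 144, 139 and 139 CPM (1.61 ± 0.07). PDP1, the phosphatase that opposes the PDK kinases, fell from 71.3, 71.7 and 71.7 CPM to 41.6, 43.1 and 45.6 CPM (-0.72 ± 0.08). The kinase and the phosphatase of the same enzyme thus moved in opposite directions. Of the 23 tested genes of pyruvate dehydrogenase and fatty acid oxidation, 7 rose and 6 fell, with ACADVL, the very long-chain acyl-CoA dehydrogenase, higher by 0.69 ± 0.09.

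Hypoxia and glycolysis genes rose in 26 of 35 tested members and none fell (1 fell without the 2 libraries that stand apart), with a median of 0.44. NDRG1 went from 34, 37.8 and 34.6 CPM to 117, 132 and 113 CPM (1.77 ± 0.10), and ADM, the vasodilator peptide adrenomedullin, from 26.5, 30.4 and 26.8 CPM to 57.8, 77.8 and 60.6 CPM (1.23 ± 0.15). Glycolytic enzymes moved by less, with LDHA, lactate dehydrogenase A, at 0.38 ± 0.07 and PGK1, phosphoglycerate kinase, at 0.27 ± 0.07. HK2, a hexokinase, did not pass, at 85.5, 89.3 and 84.8 CPM and then 85.6, 86.6 and 83.3 CPM. VEGFA, the growth factor by which podocytes maintain the glomerular endothelium, went from 252, 247 and 246 CPM to 455, 492 and 428 CPM (0.88 ± 0.12). Of 32 nuclear oxidative phosphorylation genes 12 fell and none rose (median -0.25), and 20 fell without the 2 libraries that stand apart. Of 13 mitochondrially encoded genes none passed in either direction, against 2 higher and 1 lower without those libraries.

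Of 24 tested cholesterol synthesis genes 14 fell and none rose (median -0.44), and of 21 fatty acid synthesis genes 12 fell and 1 rose (median -0.29). INSIG1, which retains the sterol regulatory complex in the endoplasmic reticulum, went from 28.2, 26.4 and 27.9 CPM to 10.8, 10.8 and 12.5 CPM (-1.27 ± 0.14, edgeR adjusted p = 1.48e-07). DHCR7, a late reductase of the pathway, went from 46.7, 46.4 and 47 CPM to 30.3, 28.4 and 28 CPM (-0.69 ± 0.10). SREBF2, the master transcription factor of sterol genes, went from 147, 142 and 151 CPM to 84.1, 93.3 and 88.8 CPM (-0.72 ± 0.09). Each lay below all controls in all 3 cytokine libraries. FASN, the fatty acid synthase, fell by 0.80 ± 0.15. HMGCS1 and ELOVL6 did not pass.

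Of 41 tested mitosis and kinetochore genes 40 fell and none rose (median -0.93), and of 40 DNA replication and G1/S genes 27 fell, 13 did not pass and none rose (median -0.58). PRC1, the mitosis gene that did not pass, was at or below 1.03 CPM in each library. MKI67, the proliferation antigen, had 384, 370 and 389 CPM in the controls and 206, 163 and 180 CPM with cytokines (-1.06 ± 0.19). BUB1, a kinase of the spindle checkpoint, went from 86.8, 83.4 and 89.6 CPM to 39.8, 39.9 and 35.8 CPM (-1.17 ± 0.11). CCNB2, cyclin B2, went from 53.7, 52.5 and 51.2 CPM to 24.8, 24.6 and 21.8 CPM (-1.14 ± 0.14), and PLK1, polo-like kinase 1, from 90.9, 88.9 and 100 CPM to 63.9, 48.3 and 47 CPM (-0.81 ± 0.12). In all 4 the highest cytokine library lay below the lowest control. Among replication genes MCM5, a subunit of the replicative helicase, fell by 0.71 ± 0.12 and TYMS, thymidylate synthase, by 0.91 ± 0.18, while PCNA, the sliding clamp, did not pass (-0.22 ± 0.10). In bulk libraries fewer dividing cells and less RNA per dividing cell cannot be told apart.

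The promoters of CCNB2 and PLK1 are shown because they carry the paired elements common to mitotic genes, the CHR (cell cycle genes homology region, TTTGAA) and the CCAAT box, both in capitals. The windows are chr15:59105026-59105145 and chr16:23678769-23678888, both on the plus strand.
CCNB2: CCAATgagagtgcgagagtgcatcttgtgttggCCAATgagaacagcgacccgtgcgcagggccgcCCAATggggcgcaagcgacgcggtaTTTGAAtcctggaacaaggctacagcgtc
PLK1: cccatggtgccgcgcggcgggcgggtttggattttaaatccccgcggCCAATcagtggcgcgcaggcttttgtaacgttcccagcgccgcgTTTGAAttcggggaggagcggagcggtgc

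In both genes the CHR began 29 bases before the start. CCNB2 held 3 CCAAT boxes and PLK1 held 1 in the stretch shown. The CHR stood in 22 of the 34 mitosis genes with a window (64.7%), against 15.4% of all genes with a window and 9.97% of genes tested, 14.5% of genes that fell and 9.58% of genes that rose. The CCAAT box (CCAAT) stood in 73.5% of the mitosis genes, 60% of the DNA replication genes and 15 of 18 cholesterol synthesis genes (83.3%), against 35.7% of all genes and 36.2% of genes tested. A sterol element (TCACNCCAC) stood in only 1 of the 18 cholesterol synthesis genes (5.56%), against 1.15% of all genes and 1.19% of genes tested. The STAT motif TTCNNNGAA stood in 3 of 19 IL-6 and STAT3 response genes (15.8%), against 7.88% of all genes and 6.51% of genes tested. It was not particular to that list, with 7 of 31 NF-kB target genes (22.6%) and 4 of 13 complement genes (30.8%). Genes that rose held it in 5.96% and genes that fell in 6.01%.

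Regulators of the G1 phase moved in different directions. CCND1, cyclin D1, went from 604, 630 and 638 CPM to 373, 335 and 356 CPM (-0.82 ± 0.07), and MYC went from 118, 116 and 120 CPM to 84.1, 72.4 and 76.8 CPM (-0.60 ± 0.13). CDKN1C, the inhibitor p57, which is a marker of quiescent podocytes, rose from 11.3, 12 and 11.5 CPM to 25, 30.1 and 28.9 CPM (1.27 ± 0.17). CDKN1A, the inhibitor p21, had 133, 128 and 131 CPM and then 138, 166 and 139 CPM and did not pass (0.18 ± 0.08, edgeR adjusted p = 0.0913). Of 26 p53 target genes 2 rose (6 without the 2 libraries that stand apart) and 6 fell, with a median of 0.11.

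Of 29 AP-1 and immediate early genes 11 rose, 5 fell and 13 did not pass (median 0.45). FOS went from 11.5, 9.06 and 9.84 CPM to 83.6, 75.9 and 83.5 CPM (3.00 ± 0.23), and FOSB from 6.48, 4.98 and 5.53 CPM to 50.3, 38 and 50.6 CPM (3.03 ± 0.20). KLF2 and KLF4, factors that limit inflammatory gene expression in the vessel wall, went from 4.93, 4.74 and 4.6 CPM to 17.3, 22.9 and 13 CPM (1.90 ± 0.21) and from 8.09, 7.33 and 6.35 CPM to 23, 17 and 19.2 CPM (1.44 ± 0.21). No cytokine library of these 4 genes reached down to a control. ATF3, a stress-induced factor, fell by 0.79 ± 0.20, and EGR1 did not pass (0.50 ± 0.18).

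Targets of the mechanosensitive cofactors YAP and TAZ fell in 16 of 23 tested members and rose in 1 (median -0.47). CRIM1, a transmembrane protein that binds BMPs, went from 952, 969 and 998 CPM to 524, 433 and 466 CPM (-1.04 ± 0.09). CCN1, a matricellular protein, went from 766, 762 and 759 CPM to 451, 381 and 423 CPM (-0.87 ± 0.09). ANKRD1 fell by 0.80 ± 0.15 and CCN2 by 0.39 ± 0.08. The member that rose was IGFBP3, from 188, 181 and 194 CPM to 506, 532 and 540 CPM (1.48 ± 0.10). Of 23 SRF target genes of the cytoskeleton 8 fell and 1 rose (3 without the 2 libraries that stand apart), the SRF gene itself (0.35 ± 0.11, a call lost in 5 of the 15 alternative fits).

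BMP signalling genes rose in 13 of 22 tested members and fell in 4 (median 0.62). BMP2, a ligand, went from 16.8, 16 and 16.1 CPM to 59.3, 61.8 and 64.4 CPM (1.92 ± 0.12). The target genes ID1 and ID3, which encode inhibitors of differentiation factors, went from 45.8, 45.8 and 47.1 CPM to 122, 120 and 120 CPM (1.38 ± 0.10) and from 37.2, 39.4 and 37.8 CPM to 101, 115 and 94.1 CPM (1.44 ± 0.11). The inhibitory SMAD genes SMAD6 (0.93 ± 0.18) and SMAD7 (0.77 ± 0.11) rose as well. BMP4, another ligand, went down from 1.55, 1.83 and 3.09 CPM to 0.333, 0.43 and 0.509 CPM (-2.31 ± 0.40), and the antagonist NOG fell by 1.15 ± 0.28. Among TGF-beta targets 11 of 24 rose and 4 fell, the latter including SMURF2, a ubiquitin ligase of the pathway, from 136, 133 and 139 CPM to 95.6, 80.6 and 90.4 CPM (-0.61 ± 0.08).

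Fibrillar collagens and stromal matrix genes rose in 13 of 28 tested members, 15 did not pass and none fell (median 0.56; 1 fell without the 2 libraries that stand apart). DCN, the small proteoglycan decorin, went from 7, 8.03 and 7.1 CPM to 131, 131 and 117 CPM (4.09 ± 0.16), and LUM, lumican, from 16.1, 16.4 and 18.2 CPM to 93.4, 111 and 106 CPM (2.62 ± 0.11). COL12A1, a collagen that sits on fibril surfaces, went from 430, 431 and 445 CPM to 1174, 1098 and 1147 CPM (1.39 ± 0.10). COL1A1 did not pass, at 6401, 6328 and 6431 CPM and then 9470, 10602 and 8164 CPM (0.56 ± 0.31, edgeR adjusted p = 0.224), though the groups did not overlap. FN1, fibronectin, took 8.26 to 8.33% of all counts in the controls and 11.8 to 11.9% with cytokines (0.55 ± 0.11). Fibroblast markers, which include several of these genes, summed to 6560 to 6680 CPM in the controls and 8590 to 11000 CPM with cytokines, with 4 of 8 higher and 1 lower. Their part in the result was not tested.

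Genes of the glomerular basement membrane divided, with 4 of 21 higher (8 without the 2 libraries that stand apart) and 6 lower. LAMA5, the alpha chain of the mature glomerular laminin, went from 427, 412 and 414 CPM to 705, 751 and 611 CPM (0.72 ± 0.11), and COL4A5 rose by 0.52 ± 0.12. LAMB1 fell by 0.30 ± 0.08. The enzymes that remove sulfate from heparan sulfate chains rose. SULF1 went from 0.459, 0.329 and 0.116 CPM to 26, 22.2 and 20.3 CPM (6.20 ± 0.31) and SULF2 from 0.975, 1.13 and 0.873 CPM to 4.32, 5.53 and 5.28 CPM (2.33 ± 0.25). Over the whole heparan sulfate list 6 of 19 rose and 3 fell, and the median was 0.06.

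Matrix proteases moved both ways. TIMP1, a metalloproteinase inhibitor, went from 248, 249 and 239 CPM to 641, 704 and 572 CPM (1.38 ± 0.17), and MMP2, gelatinase A, from 560, 554 and 584 CPM to 1247, 1307 and 1155 CPM (1.13 ± 0.08). MMP1, the interstitial collagenase, fell from 387, 379 and 388 CPM to 201, 176 and 197 CPM (-1.01 ± 0.10). The plasminogen activators PLAU (-0.76 ± 0.11) and PLAT (-0.65 ± 0.14) fell as well.

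Podocyte cytoskeleton and disease genes showed no common direction, with 5 of 28 tested higher, 7 lower (11 without the 2 libraries that stand apart) and a median of -0.03. The shares were 17.9% higher and 25% lower, against 13% and 12.9% of all genes tested. SYNPO, which organises actin in foot processes, had 71.4, 66.5 and 69.5 CPM in the controls and 116, 122 and 104 CPM with cytokines (0.72 ± 0.11, edgeR adjusted p = 8.96e-06). PLA2R1, the main autoantigen of membranous nephropathy, went from 17.5, 13.1 and 19.6 CPM to 43.7, 48.6 and 49.1 CPM (edgeR adjusted p = 3.51e-08), and FOXC1, a podocyte transcription factor, from 11.8, 13.4 and 11.4 CPM to 30.9, 29.4 and 27.6 CPM (1.26 ± 0.14). These 3 were higher in every cytokine library. ACTN4, the actin cross-linker alpha-actinin 4, went from 1242, 1227 and 1215 CPM to 996, 950 and 856 CPM (-0.39 ± 0.09), and KIRREL3, a relative of nephrin, fell by 1.39 ± 0.25. PODXL, at 10, 9.06 and 11.3 CPM and then 7.92, 5.71 and 7.38 CPM, did not pass (-0.53 ± 0.21, edgeR adjusted p = 0.0638). CD2AP and MYO1E, also cytoskeletal partners of the slit diaphragm, overlapped between groups.

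Of 17 genes of the IGF axis 11 rose and none fell (median 0.56), among them IGFBP5, IGFBP3 and IGF1R, the receptor (0.58 ± 0.07). STC1, stanniocalcin 1, an inhibitor of the protease PAPP-A, went from 17.7, 15.7 and 15.8 CPM to 61.5, 68.1 and 62.9 CPM (1.97 ± 0.17). Of 23 synaptic vesicle and secretory granule genes 7 rose and 3 fell. CPE, carboxypeptidase E, which trims peptide hormones, went from 11.8, 12.8 and 13.4 CPM to 37.7, 44.1 and 43.3 CPM (1.72 ± 0.13), and SCG2, secretogranin II, from 1.15, 0.47 and 0.757 CPM to 7.12, 8.54 and 9.04 CPM (3.39 ± 0.38). Among stress programs, heat shock and chaperone genes fell in 8 of 19 members and rose in none, with HSPD1, the mitochondrial chaperonin, lower by 0.60 ± 0.12. Lysosome and autophagy genes rose in 11 of 34 (19 without the 2 libraries that stand apart) and fell in 1.

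The same cytokines on smooth topography called 2136 genes higher and 2008 lower, 25.7% in all. Of the genes that rose on fractal topography 60.3% also rose on smooth (1259 genes, 58.9% of the smooth rises), and of those that fell 59.9% also fell (1245 genes, 62% of the smooth falls). Opposite calls were made for 21 and 24 genes. Over the 16129 genes the log2 fold changes had a Pearson correlation of 0.60, across genes that are not independent replicates. Mitosis genes fell on both surfaces, with 39 of 41 lower on smooth. DNA replication genes fell in 27 of 40 on fractal and 8 of 40 on smooth topography, and 3 of the 40 differed between surfaces in the interaction test described next.

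**Figure D3:**
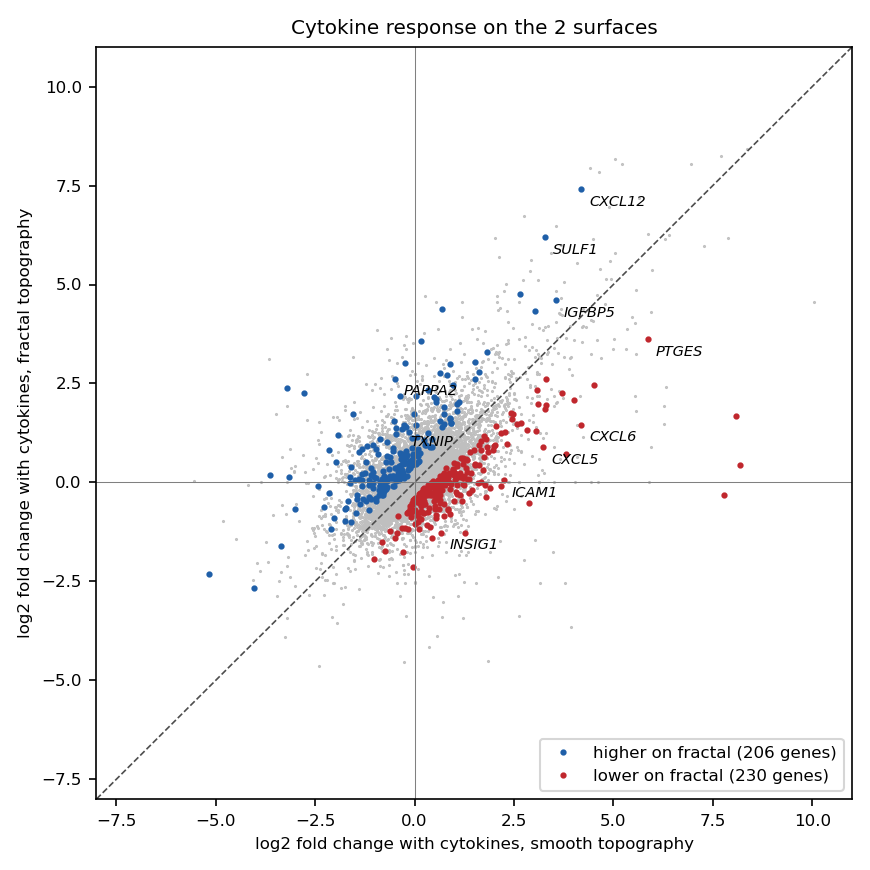
Log2 fold change of cytokines against control on fractal (vertical) and smooth topography (horizontal), 1 point per gene tested; genes whose response differed between surfaces at an edgeR adjusted p under 0.05 are blue where higher and red where lower on fractal topography, and the dashed line marks equal responses. CXCL6, CXCL5, PTGES and ICAM1 lie well below the line and SULF1, CXCL12 and PAPPA2 well above it.

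The difference between the responses was tested as an interaction, the fractal minus the smooth log2 fold change. It was called for 436 genes, 2.7% of those tested, 206 higher (1.28%) and 230 lower (1.43%) on fractal topography. With the 2 libraries that stand apart left out, the counts were 689 and 772. Of the 230, 93 rose on smooth and were not called on fractal, 53 fell on fractal and were not called on smooth, 52 rose on both, 24 fell on fractal and rose on smooth, and 8 fell on both. Of the 206, 74 fell on smooth and were not called on fractal, 60 rose on fractal and were not called on smooth, 28 rose on both, 23 fell on both and 21 rose on fractal and fell on smooth.

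Of the 40 NF-kB targets 22 were lower in their response on fractal topography and none higher, with a median interaction of -0.93, and of the 8 CXC chemokines 6 were lower and 1, CXCL12, was higher. On smooth topography 31 of the 40 rose, 3 fell and the median was 1.18. CXCL6 had 56.6, 62.7 and 55.2 CPM in the smooth controls and 1058, 861 and 1270 CPM with cytokines, so its response on fractal topography was lower by 2.73 ± 0.18 (edgeR adjusted p = 8.51e-09). ICAM1 had 15.8, 17.5 and 18.6 CPM and then 87.9, 81.8 and 75 CPM on smooth topography, an interaction of -2.19 ± 0.13 (edgeR adjusted p = 1.42e-10). The fractal cytokine libraries, given above, lay far below the smooth ones for both genes. CXCL5 (-2.33 ± 0.19), CXCL1 (-1.51 ± 0.12), BIRC3, an inhibitor of apoptosis (-1.35 ± 0.14), CXCL8 (-1.31 ± 0.11), TNFAIP3 (-1.17 ± 0.11) and IL6 (-1.01 ± 0.13) differed in the same direction, while NFKBIZ (-0.02 ± 0.14) and SOCS3 (-0.12 ± 0.17) did not pass.

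**Figure D4:**
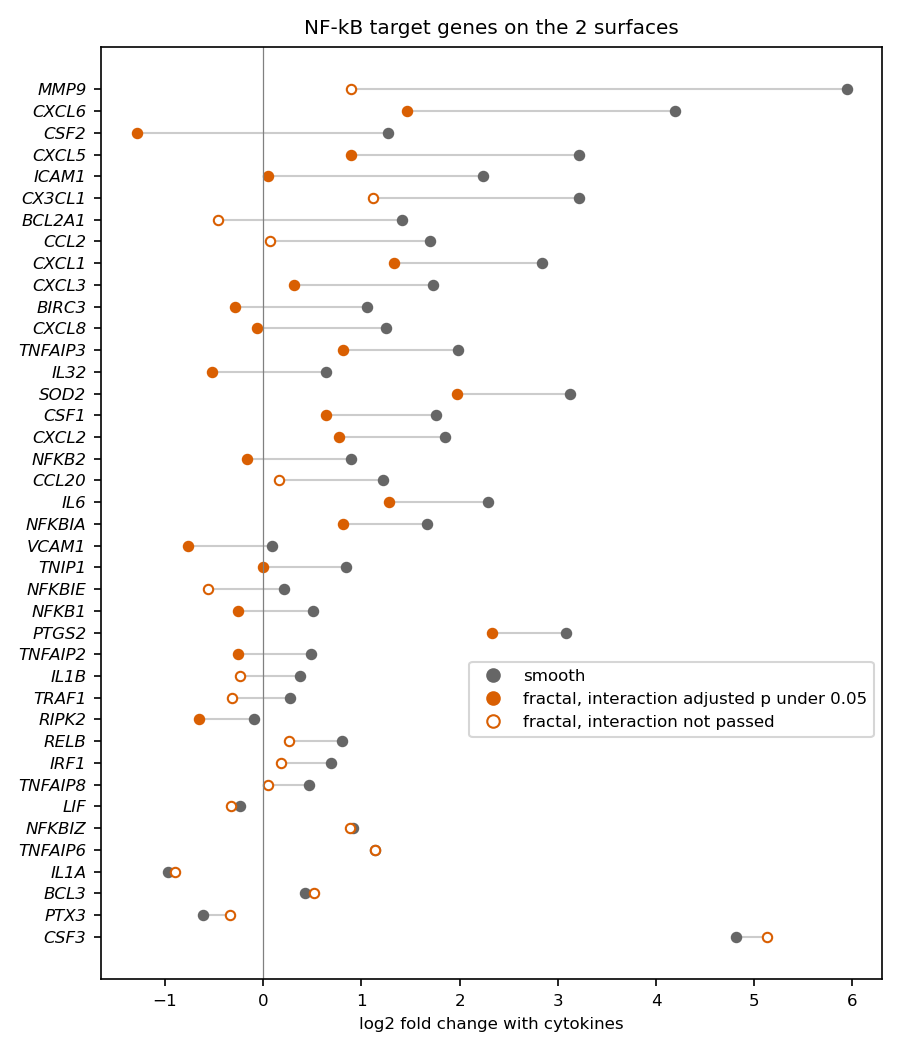
Log2 fold change with cytokines of the 40 tested NF-kB target genes on fractal (orange) and smooth topography (grey), joined by a line, ordered by the difference; a filled orange point marks an interaction at an edgeR adjusted p under 0.05, and CSF3, which has no count in the fractal controls, has a fitted value that depends on the prior count. For all 22 filled genes the fractal point lies left of the smooth point.

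Sterol genes differed from their smooth response as well. Of 24 cholesterol genes 6 were lower in the interaction and none higher, and on smooth topography 4 rose and 2 fell. INSIG1 had 10.6, 14 and 12.3 CPM in the smooth controls and 18.7, 16.4 and 23.4 CPM with cytokines, an interaction of -1.94 ± 0.20 (edgeR adjusted p = 7.78e-07). Its fractal controls stood above the smooth controls, and the cytokine libraries of the 2 surfaces were closer in CPM than the controls were. SCD fell on both surfaces, with the larger log2 fold change on fractal (interaction -0.91 ± 0.11). On smooth topography it had 126, 130 and 132 CPM in the controls and 65.7, 66.4 and 58.7 CPM with cytokines. Its fractal controls (275, 279 and 275 CPM) thus also started higher, and its fractal cytokine libraries (72.9, 68.7 and 74.6 CPM) did not end lower. DHCR7, SREBF2 and FADS2 also differed (-0.70 ± 0.15, -0.66 ± 0.13 and -0.88 ± 0.17).

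For other genes the log2 fold change was higher on fractal than on smooth topography. TXNIP, an inhibitor of thioredoxin and of glucose uptake, went from 129, 125 and 131 CPM to 331, 314 and 334 CPM on fractal, and had 258, 257 and 259 CPM and then 262, 200 and 159 CPM on smooth topography (interaction 1.66 ± 0.15, edgeR adjusted p = 1.85e-07). CDKN1A, which did not pass on fractal, fell on smooth topography from 223, 236 and 235 CPM to 104, 105 and 114 CPM (interaction 1.28 ± 0.11). KLF4 had 14.7, 13.9 and 12.2 CPM and then 11.5, 14.1 and 8.63 CPM on smooth (interaction 1.70 ± 0.29). FOS (2.10 ± 0.32), SULF2 (1.99 ± 0.33), BGN, the proteoglycan biglycan (1.81 ± 0.27), CPE (1.74 ± 0.18), IGFBP5 (1.06 ± 0.15), PTGIS (0.95 ± 0.10), and CPT1A (0.72 ± 0.10) were also higher. For SULF1 (2.92 ± 0.46), CXCL12 (3.21 ± 0.64) and PAPPA2, a protease of IGF binding proteins (3.12 ± 0.62), the standard errors were wider. In each of these genes except BGN the 3 fractal controls lay below the 3 smooth controls. For IGFBP5 the smooth libraries had 155, 150 and 158 CPM in the controls and 2162, 1593 and 1653 CPM with cytokines, so its level with cytokines was not lower on smooth topography.

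**Figure D5:**
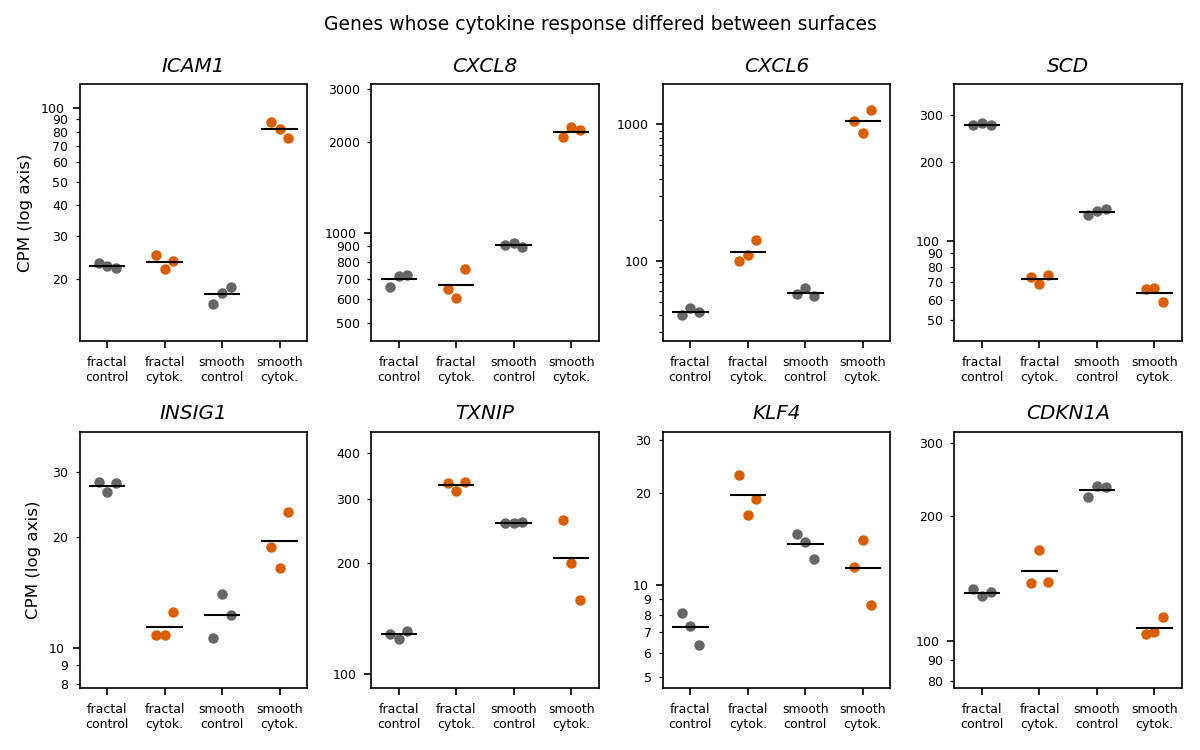
Level in CPM on a log axis of 8 genes whose response differed between surfaces, 1 point per library and a bar at the group mean, for fractal control, fractal cytokines, smooth control and smooth cytokines. CXCL8 and ICAM1 rise on smooth topography and overlap on fractal, SCD falls on both surfaces, INSIG1 falls on fractal, and CDKN1A falls on smooth.

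Cytokines and THP-1-derived macrophages on fractal topography were compared directly, without the controls. Of 16129 genes 5795 differed (35.9%), 3307 higher with cytokines (20.5%) and 2488 lower (15.4%). When the fit held only these 6 libraries the counts were 1652 and 1664, and without the 2 libraries that stand apart they were 3803 and 2656. FGB had 204, 163 and 170 CPM with cytokines and 0.587, 0.532 and 1.43 CPM with THP-1 (7.81, edgeR adjusted p = 6.5e-08). Mitosis genes were higher with cytokines than with THP-1 in 40 of 41 members. BUB1, for example, had 11.1, 14 and 16 CPM in the THP-1 libraries (edgeR adjusted p = 4.91e-10). In the other direction OLFML2B, a matrix protein, had 2, 2.15 and 1.21 CPM with cytokines and 67.1, 73.9 and 46 CPM with THP-1, and ITGB2, the leukocyte integrin chain, had no count with cytokines and 10.8, 7.03 and 8.01 CPM with THP-1. IL33 was also lower with cytokines (281, 285 and 195 CPM with THP-1), as were SOD2 (774, 807 and 1073 CPM) and CXCL6 (478, 486 and 596 CPM). Macrophage markers summed to 30.3 to 37 CPM in the THP-1 libraries, with 4 of 24 at 0, against 3.13 to 5.78 CPM with cytokines, and their part in these differences was not tested.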

How the data were processed

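RNA-seq libraries of 1 human podocyte line were analysed from the deposited table of counts per gene, which held 58735 genes and 18 libraries. Per the submitters' processing notes, the tools were featureCounts 1.5.0-p3, HISAT2 2.0.5 and CASAVA with the build GRCh38 (hg38). Their settings are not given in the sources used here. Per the labels' protocols the libraries kept no strand, so reads of a gene and of another on the opposite strand cannot be told apart. This touches 62 of the 141 named genes called in the main comparison, IGFBP5 among them, and reads of SAA1 and SAA2, of HLA genes and of clustered protocadherins may be split between copies. Groups were taken from the titles. Gene types and positions came from GENCODE release 29.

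Counts were tested with edgeR 4.0.16 in R 4.3.3: filterByExpr (min.count 10, min.total.count 15), TMM factors, a mean for each of the 6 groups and the robust quasi-likelihood test on 12 residual degrees of freedom, with Benjamini-Hochberg adjustment over the 16129 genes tested and a threshold of 0.05. Contrasts were cytokines against control on fractal topography, the same minus its counterpart on smooth topography (interaction), and cytokines against THP-1 on fractal topography. Standard errors were derived from the fold change and the F statistic. The scripts were tested on simulated data. Genes without a count in a group were set at 3 counts over the group. Ratios over 1 to 3 counts carry an exact 95% interval for counting error only. Samples were not paired by library number in the main fit. Deviations of control and cytokine libraries with the same number correlated at -0.012, 0.025 and 0.006. Whether same-numbered libraries were paired at culture cannot be told from these deviations, which also hold counting noise.

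Promoters were the first listed window of each gene in RefSeq (GRCh38.p14), 250 bases before to 50 after the start, with 11386 of the genes tested matched by symbol. Motifs were searched on both strands as NF-kB consensus, CHR, CCAAT box, STAT, sterol element and CRE (TGACGTCA), without excluding overlaps. Shares of the CRE are not reported here.

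The members, the 54 gene lists and the alternatives were chosen with earlier results of these data known. Named genes were the 12 protein-coding genes with the largest change in each direction (no overlap, and 5 CPM or more on average where higher), 8 in each direction for the other contrasts, 4 long noncoding RNAs, 6 without a count in 1 group, and members of the lists. Fewer were named in places. Alternatives were RLE and upper-quartile scaling, other filters, DESeq2 1.42.0, limma-voom (limma 3.58.1), only the groups compared, a replicate block, and leaving out libraries. Some genes of the lists are not reported here.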

Additional observations from a re-analysis of the deposited data

Results flagged for a closer look

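The following genes were singled out because their cytokine response differed between fractal and smooth topography by edgeR's interaction test at a Benjamini-Hochberg adjusted p under 0.05, with 3 libraries in each of the 4 groups. Values are the fractal minus the smooth log2 fold change.

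Lower on fractal topography among chemokine and other inflammatory genes were CXCL6 (-2.73), CXCL5 (-2.33), ICAM1 (-2.19), CXCL1 (-1.51), BIRC3 (-1.35), CXCL8 (-1.31), TNFAIP3 (-1.17) and IL6 (-1.01). Among genes of sterol and fatty acid synthesis INSIG1 (-1.94), SCD (-0.91), FADS2 (-0.88), DHCR7 (-0.70) and SREBF2 (-0.66) were lower.

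Higher on fractal topography were the secreted proteins and matrix enzymes CXCL12 (3.21), PAPPA2 (3.12), SULF1 (2.92), SULF2 (1.99), BGN (1.81), CPE (1.74) and IGFBP5 (1.06). The transcription factors FOS (2.10) and KLF4 (1.70), the metabolic genes TXNIP (1.66) and CPT1A (0.72), the cell cycle inhibitor CDKN1A (1.28) and the prostacyclin synthase PTGIS (0.95) were also higher. Of these 26 genes 25 passed in all 21 alternative fits, and CXCL12 missed the threshold in 1.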

How the results depend on the processing

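For cytokines against control on fractal topography, every alternative kept both counts within 1.5 times of 2089 and 2078. Leaving out 1 library gave 1437 to 1641 genes higher and 1609 to 2105 lower. A fit of only the 6 libraries compared gave more, 2850 higher and 3015 lower. Without fractal THP-1 replicate 3 and smooth cytokines replicate 2 the counts were 2920 and 2994. Of the 141 named genes called there, 130 passed in each of the 15 alternatives that tested them (14 for CADM3 and TREM1) and none changed sign. The 11 others were RIPK1, IL6ST, IL1A, NFKB1, BCL3, PTGER4, PGK1, SRF, NOG, BIRC3 and CSF3. The interaction counts, 206 higher and 230 lower, were less stable: DESeq2 gave 338 and 350, a fit of only the 4 groups compared 452 and 531, and a fit leaving out both fractal THP-1 replicate 3 and smooth cytokines replicate 2 gave 689 and 772. Leaving out 1 library gave 116 to 249 higher, lowest without smooth control replicate 1, and 152 to 283 lower, lowest without fractal control replicate 2. Against THP-1, with 3307 and 2488, a fit of only those 6 libraries gave 1652 and 1664, and leaving out 1 library gave 2524 to 3640 and 2176 to 2506. The cause of these shifts was not tested. With the replicate number as a block the counts were 2052 and 2023 for the main comparison, 203 and 213 for the interaction and 3290 and 2421 against THP-1. Counts near the floor of 3 limit the folds of genes such as SAA2 and HSD11B1.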

Other observations

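Further gene lists, chosen with earlier results known, moved as follows with cytokines on fractal topography, against 13% higher and 12.9% lower over all genes tested. Cyclic nucleotide signalling genes rose in 9 of 21 tested members and fell in 1, with PDE4D at 1.02 and the kinase gene PRKG2 at 3.83 on the log2 scale. VEGF family genes rose in 5 of 10 and fell in none (1 without the 2 libraries that stand apart). The fit without those 2 libraries called more genes in general, 2920 higher and 2994 lower. Integrin and focal adhesion genes fell in 8 of 28 and rose in 3 (5 without those libraries), and cadherin and junction genes fell in 6 of 21 and rose in 5. NRF2 and antioxidant genes rose in 8 of 27 and fell in 5, among the former HMOX1, heme oxygenase 1 (0.73). Genes of the unfolded protein response rose in 4 of 25 (7 without them) and fell in 6, with the chaperone gene HSPA5 at -0.32. Plasminogen activators and serpins rose in 5 of 11 and fell in 4. NF-kB subunits and inhibitors rose in 3 of 13 and fell in 2 (5 and 4 without them), and G protein-coupled receptors rose in 5 of 20 (8 without them) and fell in 3. D cyclins and CDK inhibitors rose in 2 of 16 and fell in 4 (4 and 8 without them). Wnt ligands and antagonists rose in 2 of 13 and fell in 3, and metallothioneins rose in 2 of 6 and fell in 1 (2 without them). Of 30 cytosolic ribosomal protein genes 1 fell and none rose (3 and 1 without them).

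Markers of other kidney cells showed no common direction. Mesangial and smooth muscle markers rose in 3 of 8 and fell in 1, endothelial markers rose in 2 of 8 and fell in 2, and parietal and tubular markers rose in 2 of 9 and fell in 4, their sum going from 1190 to 1210 CPM in the controls to 896 to 992 CPM with cytokines.

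Several gene families, singled out after their values were seen and so described without a test, moved mostly one way. Of 12 beta protocadherins 11 rose (median 2.12), among them a run of 8 neighbours from PCDHB16 to PCDHB15 on chromosome 5, from 141181399 to 141249365 (GRCh38), with a median of 2.08. The beta genes are alike in sequence and may share reads, and each overlaps a gene on the opposite strand. Their levels were low, with control means from 0.0626 CPM for PCDHB6 to 2.22 CPM for PCDHB14. On smooth topography 5 of the 12 rose, and none of the 12 passed the interaction test. HOXA genes rose in 6 of 10 (median 0.74) and in 7 of 10 on smooth topography. The other HOX clusters did not share this, with 1 of 8 HOXB, 1 of 7 HOXC and 0 of 7 HOXD genes higher on fractal topography. Kruppel-like factors rose in 8 of 13 and none fell, and 4 of the 13 differed between surfaces. Inward rectifier potassium channels rose in 4 of 6 on each surface, though not the same 4. KCNJ16, KCNJ2 and KCNJ15 were called higher on both surfaces. KCNJ6 was called on fractal only (3.01, against 0.09 on smooth) and KCNJ12 on smooth only (0.77, against 0.00 on fractal). None of the 6 passed the interaction test between surfaces (edgeR adjusted p = 0.277 for KCNJ6 and 0.108 for KCNJ12). Levels of KCNJ15 and KCNJ6 were low, at means of 1.11 and 0.915 CPM with cytokines on fractal topography. Genes matched by symbol as TUBA, TUBB or TUBG plus a suffix fell in 10 of 21 and none rose (median -0.51). That match is not limited to tubulins, as it admits gamma-tubulin complex genes (TUBGCP), and it leaves out TUBB itself. Subunits of the CCT chaperonin, which folds tubulin and actin, fell in 6 of 9 (median -0.40). Transfer RNA synthetase genes fell in 6 of 17 on fractal and 12 of 17 on smooth topography, and 3 of the 17 differed between surfaces.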
